A study of Mus musculus with 23 samples.

Results

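Transcripts of 10 genes of the integrated stress response were followed in the left ventricle of mice that breathed e-cigarette aerosol or filtered air. The genes were Atf3, Atf4, Atf5, Ddit3, Trib3, Asns, Sesn2, Slc38a2, Ppp1r15a and Fgf21, chosen by name as the stress-induced ATF factors and their well known partners and targets, and found by gene identifier among the 49315 genes counted. Earlier results of these data were known when these genes and the lists below were chosen. Their counts beside the share of all genes are therefore a description. All 10 were present in the table. Of these, 9 passed the filter on low counts that left 15500 genes for testing, and Fgf21 did not.

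The mice were of the FVB strain, and the labels name no mutant allele. Exposure ran for 4 hours a day on 5 days of each week over 3 months. It began at 3 weeks of age (air, 4 libraries; vehicle aerosol without nicotine, 3 libraries; nicotine aerosol, 4 libraries) or at 3 months of age (4 libraries in each of the same 3 groups), so the starting age cannot be told apart from the age at the end. Libraries are named by the replicate number in their label, and some numbers are missing. The labels name neither sex nor batch. They also do not say that each library came from its own animal, so any p-value here refers to the spread among libraries, which may be technical.

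In the integrated stress response, any of several kinases (PERK, GCN2, PKR and HRI) phosphorylates the translation initiation factor eIF2. Most protein synthesis then slows, while the mRNA of the transcription factor ATF4 is translated better, so that much of the control of ATF4 lies outside its mRNA level. ATF4 raises transcription of genes for amino acid supply and of further regulators such as CHOP, the product of Ddit3, and PPP1R15A leads a phosphatase back to eIF2 and ends the response. ATF3 is a repressor and activator of the same bZIP family that many stresses induce in the heart, and it is also an early-response gene.

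The libraries held 12297955 to 17821550 counts. Levels are given throughout as CPM, counts normalized to library size with TMM scaling, and log2 fold changes are given with their standard error. Variation between libraries (edgeR's common biological coefficient of variation) was 0.236 for the 11 libraries of the 3-week start and 0.106 for the 12 of the 3-month start, so a given difference was easier to call at the 3-month start. The markers of ventricular cardiomyocytes summed to at least 66500 CPM in every library, while those of skeletal muscle and lung epithelium reached at most 0.379 and 0.748 CPM. Air libraries 1 and 5 of the 3-week start stood apart from air libraries 2 and 4 in several of the genes below, and results that rest on them are given with and without them.

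Short stretches of 4 of the promoters are shown because they hold a motif through which factors of this family are known to bind. The 250 bases before the RefSeq transcription start (GRCm38.p6) of all 10 genes were searched on both strands for TGATGNAA, the core of the C/EBP-ATF response element, and for TGACGTCA, the cAMP response element. No match of one motif overlapped a match of the other in these genes. Each line below runs 5′ to 3′ on the gene's own strand, which is the minus strand of the genome in each, and the capitals mark the match.
Atf3, chr1:191183425-191183454: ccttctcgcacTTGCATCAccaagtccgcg
Asns, chr6:7693214-7693243: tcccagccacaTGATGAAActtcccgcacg
Fgf21, chr7:45615611-45615640: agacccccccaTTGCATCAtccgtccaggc
Ppp1r15a, chr7:45526269-45526291: cgcctctccggTGACGTCAgcac
In Atf3 and Fgf21 the match reads TTGCATCA, which is the first motif on the opposite strand, 103 to 110 and 132 to 139 bases before the start. In Asns it lies 16 to 23 bases before the start. The first motif was thus found in 3 of 10 genes, against 3.45% of 32851 RefSeq promoters. The cAMP response element was found in 1 of 10, Ppp1r15a, against 1.55%. These shares are per promoter, while a gene counted if any of its promoters matched, and the 10 genes have 11 promoters. A match describes these letters in this window and says nothing about binding. The genes with a match did not form a group in their levels: Atf3 varied more than any other of the 9 tested genes, Asns was low and steady, and Fgf21 was near 0.

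Levels per kilobase of exon, the scale on which genes can be compared, placed the 10 genes in 3 tiers. Over all 23 libraries the median level per kilobase was 39.4 CPM for Atf4, 35.4 for Atf3, 29.7 for Atf5, 26.5 for Slc38a2 (a sodium-coupled neutral amino acid transporter), 25.3 for Ppp1r15a and 17 for Ddit3. Trib3, a pseudokinase that restrains ATF4 and CHOP, had a median of 1.37 CPM per kilobase, Sesn2 (a sestrin that senses leucine and damps mTORC1) 1.17, and Asns (asparagine synthetase) 0.848. Fgf21, the gene of a stress hormone made mainly by liver, gave 14 counts in all 23 libraries together, was at 0 in 13 of them and never exceeded 2 counts. A count of 0 in those 13 libraries allows up to 3 counts, or 0.157 to 0.247 CPM, counting error only.

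**Figure D1:**
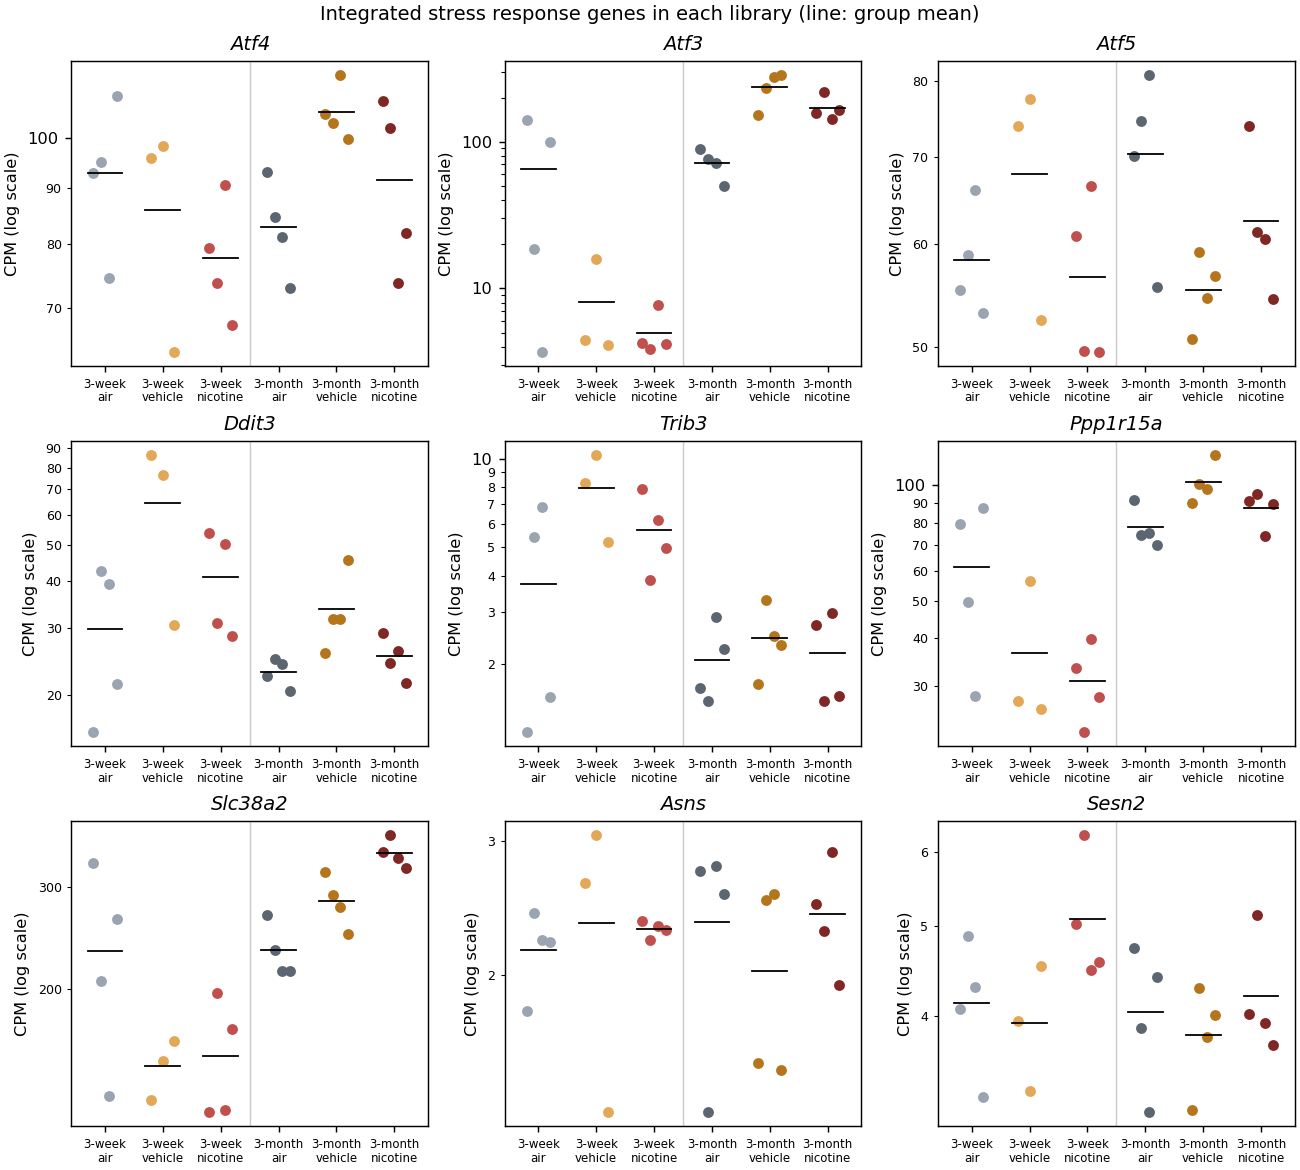
Level of the 9 tested genes in each library, in CPM on a log axis that differs by panel; each point is 1 library and the line is the group mean. Atf3 ran from 3.68 to 285 CPM, while Atf4 stayed between 63.8 and 114 CPM.

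At the 3-month start, vehicle aerosol against air was the comparison in which most of these genes passed the test. Of the 9 tested genes 5 were higher (Atf3, Ppp1r15a, Ddit3, Slc38a2 and Atf4), 1 was lower (Atf5), and Trib3, Asns and Sesn2 did not pass. Of all 15500 genes, 17.3% were called in this comparison, 6.64% as higher and 10.6% as lower. In bulk tissue, a change in the share of a cell type and a change in RNA per cell cannot be told apart.

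Atf3 had the largest difference of the 9. Its level was 88.5, 76.2, 71.8 and 49.9 CPM in the air libraries, and 152, 232, 278 and 285 CPM in the vehicle libraries. Every vehicle library lay above every air library, by a log2 fold change of 1.73 ± 0.23 (fold 3.31, adjusted p = 0.00174, edgeR's quasi-likelihood test with Benjamini-Hochberg adjustment, as for all adjusted p-values unless another tool or table is named). Leaving out any 1 library kept Atf3 past the threshold (adjusted p 0.000437 to 0.00801). The calls of the other 5 genes, given next, rested more on single libraries.

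Atf4, the central transcription factor of the response, moved far less. Air libraries held 93, 84.6, 81.2 and 73 CPM and vehicle libraries 105, 103, 114 and 99.6 CPM. The groups did not overlap, and the log2 fold change was 0.35 ± 0.10 (adjusted p = 0.0319). Ddit3, whose product CHOP promotes cell death in prolonged stress, was at 22.4, 24.9, 24.1 and 20.4 CPM in air against 25.8, 31.7, 31.8 and 45.4 CPM in vehicle. These groups did not overlap either, and the log2 fold change was 0.55 ± 0.14 (adjusted p = 0.0153). Thus 3 of the 9 genes, all higher in vehicle, had groups that did not overlap, against 20.1% of all tested genes and 8.51% in that direction.

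Ppp1r15a rose from 91.7, 74.2, 75.1 and 70 CPM in air to 89.8, 101, 97.8 and 120 CPM in vehicle. Air library 1 lay above the lowest vehicle library, and the log2 fold change was 0.40 ± 0.10 (adjusted p = 0.0139). Slc38a2 was at 269, 234, 215 and 215 CPM in air and 319, 291, 277 and 249 CPM in vehicle, with a log2 fold change of 0.29 ± 0.08 (adjusted p = 0.0266). Here too 1 air library reached into the vehicle range. Atf5, a factor linked to mitochondrial stress, was lower, with 70.1, 74.5, 80.9 and 55.6 CPM in air against 50.7, 59.1, 54.5 and 56.7 CPM in vehicle (log2 fold change -0.35 ± 0.11, adjusted p = 0.0328). Air library 5 lay within the vehicle range, and an exonic stretch of 82 bases (4.11% of its length) is shared with Il4i1 and Nup62 on the other strand, so that reads there cannot be assigned where counting ignores strand.

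When each of the 8 libraries was left out in turn, Ddit3 and Ppp1r15a stayed past the threshold in 7 of 8 fits each, and both were lost without air library 5 (adjusted p = 0.054 and 0.0526). Atf4 stayed in 3 of 8 fits (those without air library 1, vehicle library 1 or vehicle library 4), with an adjusted p of up to 0.103. Slc38a2 stayed in 2 of 8 (those without air library 1 or vehicle library 4), with up to 0.0873. Atf5 stayed in 1 of 8 (that without air library 5), with up to 0.0968. No fold change turned direction in these fits.

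Trib3, Asns and Sesn2 did not pass in this comparison. Trib3 was 2.07 ± 0.642 CPM in air and 2.46 ± 0.662 CPM in vehicle (SD, n = 4 each), Asns 2.35 ± 0.695 and 2.03 ± 0.588 CPM, and Sesn2 4.05 ± 0.688 and 3.82 ± 0.472 CPM. Their log2 fold changes were 0.24 ± 0.27, -0.21 ± 0.25 and -0.08 ± 0.17. In these 8 libraries Trib3 had 24 to 54 counts, Asns 22 to 44 and Sesn2 50 to 71, so small differences in them were not detectable at this depth.

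Several library properties moved with the vehicle group, and their part in these differences was not tested. The rank correlation over genes between exonic length and each gene's deviation from its mean was -0.247 to -0.115 in the 4 vehicle libraries, and 0.0852 to 0.299 in the 4 air libraries. With an offset that removes this trend, Atf3 (1.63, adjusted p = 0.00259), Slc38a2, Ppp1r15a and Atf5 remained past the threshold, while Atf4 (0.27, adjusted p = 0.0733) and Ddit3 (0.43, adjusted p = 0.0537) did not. That fit called 13.3% of all genes. The 5 blood markers summed to 659 to 891 CPM in vehicle against 303 to 721 CPM in air. A fit of all 23 libraries at once, which takes its spread from both starting ages, gave the same fold changes and called 0 of the 9 genes, with adjusted p of 0.299 for Atf3 and 0.317 to 0.476 for the other 5, and 0% of all genes. In the fit of the 3-month libraries alone, 6 of the 9 genes had an unadjusted p under 0.05, as had 30.8% of all genes.

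Nicotine aerosol against air at the 3-month start called 1 of the 9 genes, Slc38a2. Its level was 346, 370, 337 and 324 CPM with nicotine against 269, 234, 215 and 215 CPM in air. Every nicotine library lay above every air library, with a log2 fold change of 0.56 ± 0.08 (fold 1.48, adjusted p = 0.0254), and it ranked 2 by p among the 15500 genes. In this comparison 0.0452% of genes were called, 7 in number. The call was lost when air library 2, 4 or 5 or nicotine library 2 was left out (adjusted p 0.00552 to 0.157 over the 8 libraries) and in the fit of all 23 libraries (adjusted p = 1).

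Atf3 was at 158, 219, 143 and 164 CPM with nicotine, again above all 4 air libraries. The log2 fold change was 1.26 ± 0.23 (fold 2.39), but the adjusted p was 0.16 (unadjusted 0.000257). DESeq2 gave 1.24 with an adjusted p of 9.68e-05 on the same libraries and called 0.252% of genes. In the authors' deposited table Atf3 stands first by p of 13991 genes, with a log2 fold change of 1.24 and an adjusted p of 1.33e-10, and Slc38a2 stands at rank 5, with 0.55 and 9.5e-07. Atf3 and Slc38a2 were the 2 of 9 genes whose groups did not overlap, against 3.7% of all tested genes.

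The other 7 tested genes did not pass. Atf4 was at 108, 102, 73.8 and 81.8 CPM with nicotine, so that libraries 3 and 4 lay within the air range (log2 fold change 0.14 ± 0.11, adjusted p = 0.918). Ddit3 had a log2 fold change of 0.14 ± 0.14, Ppp1r15a 0.17 ± 0.10 and Atf5 -0.17 ± 0.11. The median log2 fold change of the 9 genes was 0.14, beside 0.01 over all tested genes.

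The direct comparison of nicotine with vehicle aerosol at the 3-month start also called 1 of the 9 genes, Slc38a2, where 15.1% of all genes were called. The lowest nicotine library (324 CPM) lay just above the highest vehicle library (319 CPM), with a log2 fold change of 0.28 ± 0.08 (adjusted p = 0.0338). The call stayed in 3 of the 8 fits that left out 1 library (those without vehicle library 1 or nicotine library 1 or 4; adjusted p 0.0135 to 0.106) and was lost in the fit of all 23. It was the 1 gene of the 9 whose groups did not overlap, against 18.8% of all tested genes, so neither count stood above its background. Slc38a2 has the longest exonic length of the 10 genes, 8.84 kb, and with the length offset the difference was 0.15 (adjusted p = 0.285). Length trends were -0.00387 to 0.317 in the nicotine libraries, above all 4 vehicle libraries, and summed blood markers were 407 to 551 CPM, below all 4. Over the 3 groups Slc38a2 thus ran in the order air, vehicle, nicotine, and the last step did not pass with the length offset.

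Atf3 was lower with nicotine than with vehicle by a log2 fold change of -0.47 ± 0.22, which did not pass (adjusted p = 0.197), and 3 of the 4 nicotine libraries lay within the vehicle range. Without vehicle library 1, the lowest at 152 CPM, the value was -0.63 (adjusted p = 0.0357). Ddit3 had -0.41 ± 0.14 (adjusted p = 0.0623), DESeq2 gave -0.43 (adjusted p = 0.0249), and the length offset gave -0.29 (adjusted p = 0.21).

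**Figure D2:**
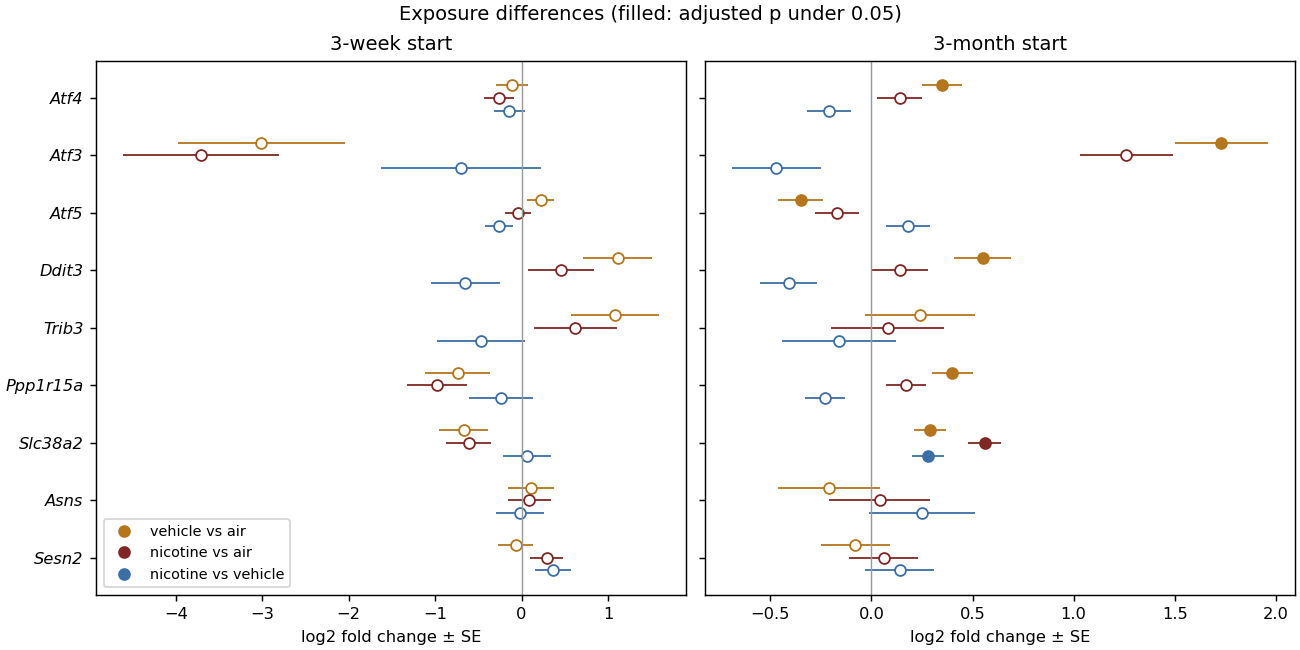
Log2 fold change of the 9 tested genes in the 3 exposure comparisons at each starting age, with bars of 1 SE; filled points have an adjusted p under 0.05 and the 2 panels have different horizontal scales. At the 3-month start Atf3 lay at 1.73 for vehicle and 1.26 for nicotine against air, and at the 3-week start at -3.01 and -3.71, where no point is filled.

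At the 3-week start, 0 of the 9 genes and 0% of all genes passed in any of the 3 comparisons. Before adjustment, a p under 0.05 was reached by 3 of the 9 genes in nicotine against air (7.59% of all genes), by 3 in vehicle against air (21.9%) and by 0 in nicotine against vehicle (7.59%). None of the 9 genes had groups that did not overlap, where 5.19%, 9.25% and 4.9% of all tested genes had.

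The air libraries themselves were split. Atf3 was at 140 and 99 CPM in air libraries 1 and 5, at 18.5 CPM in library 2 and at 3.68 CPM in library 4, a range of 38.2-fold within 1 group. The exposed libraries were all low, with 4.48, 15.8 and 4.15 CPM in vehicle and 4.24, 3.86, 7.73 and 4.18 CPM in nicotine. The log2 fold change of nicotine against air was -3.71 ± 0.90 (adjusted p = 0.368), and that of vehicle against air -3.01 ± 0.97 (adjusted p = 0.202). Without air libraries 1 and 5 these fell to -1.16 (adjusted p = 1) and -0.46 (adjusted p = 0.821). In the authors' deposited table nicotine against air stands at -3.71 with an adjusted p of 0.0219, among 138 of 14218 genes under 0.05. The fit of all 23 libraries gave 0.0213 for nicotine and 0.024 for vehicle, calling 0.761% and 16.2% of all genes, and DESeq2 gave 0.0167 and 0.0709.

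Ppp1r15a and Slc38a2 showed the same split. In air libraries 1 and 5 Ppp1r15a stood at 79.6 and 87.1 CPM, while libraries 2 and 4 held 49.8 and 28.4 CPM. Slc38a2 stood at 331 and 264 CPM in the first pair and at 206 and 130 CPM in the second. With nicotine their ranges were 22.8 to 39.9 and 122 to 197 CPM, and the log2 fold changes against air were -0.98 ± 0.35 (adjusted p = 0.478) and -0.61 ± 0.26 (adjusted p = 0.598). Without air libraries 1 and 5 they were -0.33 and -0.14.

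Ddit3 and Trib3 ran the other way in the same libraries. Ddit3 was at 15.9 and 21.4 CPM in air libraries 1 and 5 and at 42.5 and 39.3 CPM in libraries 2 and 4. Trib3 was at 1.17 and 1.54 CPM in libraries 1 and 5 and at 5.4 and 6.87 CPM in the other two. Libraries 1 and 5 were therefore high in Atf3, Ppp1r15a and Slc38a2 and low in Ddit3 and Trib3. Markers of several cell types moved with this split, in both directions. The 5 neutrophil markers summed to 11.5 and 9.18 CPM in air libraries 1 and 5 with 0 of them at 0, against 0.839 and 1.04 CPM in libraries 2 and 4 and 0.754 to 2.05 CPM in the exposed libraries, where up to 3 of the 5 were at 0. All 5 had a negative log2 fold change against air with nicotine (median -3.40) and with vehicle (median -3.06), and 0 passed. The sum of the 3 mesothelium markers ran the same way, at 29.6 and 44.2 CPM in this pair. It was 13.6 and 9.71 CPM in the other pair and 6.94 to 18.7 CPM under exposure. Of these markers only Wt1 passed the filter on low counts, so the sums do not show that Msln and Upk3b follow the split. Ventricular cardiomyocyte markers were also highest in libraries 1 and 5 at this start, at 83200 and 86900 CPM against 66500 to 78600 CPM. Their part in the split was not tested.

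Vehicle libraries 1 and 2 held the highest Ddit3 levels of the series, 86.4 and 76.4 CPM, and vehicle library 4 held 30.6 CPM. Trib3 was at 8.29, 10.3 and 5.22 CPM in the same libraries. Against air the log2 fold changes were 1.11 ± 0.40 for Ddit3 (adjusted p = 0.202) and 1.08 ± 0.51 for Trib3 (adjusted p = 0.235). Without air libraries 1 and 5 they were 0.66 and 0.37, and without vehicle library 4 that of Ddit3 was 1.45 (adjusted p = 0.0199), in a fit that called 3874 of 15500 genes. The length trend was lower in the libraries with the higher Ddit3 levels, within air and within both exposed groups. In air it was -0.0679 and -0.0434 in libraries 2 and 4 against 0.263 and -0.0167 in libraries 1 and 5. In vehicle it was -0.211 and -0.278 in libraries 1 and 2 against 0.18 in library 4. With nicotine it was -0.347 and -0.297 in libraries 2 and 5, and 0.103 and 0.204 in libraries 3 and 6. With the length offset the log2 fold change of vehicle against air was 0.91 for Ddit3 (adjusted p = 0.195) and 0.97 for Trib3 (adjusted p = 0.238), and the part of the trend in the split within groups was not tested. A stretch of 105 exonic bases of Ddit3 (6.13%) is shared with a second, short gene identifier of the same name on the same strand and was not separated here. Ddit3 also shares 68 exonic bases (3.97%) with Mars and 13 (0.759%) with Gm4189 on the other strand. Reads there cannot be assigned where counting ignores strand. With nicotine, Ddit3 was at 53.8, 30.9, 50.3 and 28.6 CPM in libraries 2, 3, 5 and 6, and its log2 fold change against air was 0.46 ± 0.38 (adjusted p = 0.876), and 0.00 without air libraries 1 and 5.

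Atf4 and Atf5 varied little by comparison. Atf4 was 92.9 ± 14.2 CPM in air (n = 4), 86 ± 19.2 CPM in vehicle (n = 3) and 77.8 ± 9.76 CPM with nicotine (SD, n = 4). Atf5 was 58.3 ± 5.66, 67.9 ± 13.6 and 56.6 ± 8.48 CPM in the same order. Asns was at 2.16 ± 0.263 and Sesn2 at 4.13 ± 0.658 CPM in air, and neither passed in any comparison. Between nicotine and vehicle at this start the log2 fold changes ran from -0.70 ± 0.93 for Atf3 to 0.36 ± 0.21 for Sesn2, and the lowest adjusted p of the 9 genes was 0.581.

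The difference between the 2 starting ages was then tested directly, as the nicotine effect at 3 weeks minus that at 3 months. This effect is nicotine aerosol against air, so any effect of the vehicle is part of it. Atf3 was the 1 gene of the 9 called, where 0.135% of all genes were, with a difference of -4.96 ± 0.94 (adjusted p = 0.0302). At the younger start all 4 nicotine libraries lay below air libraries 1, 2 and 5 and above air library 4, and at the older start all 4 lay above every air library. The call was lost when 3-week air library 1 or 5 was left out and in 13 of the 16 fits that left out 1 library (adjusted p 0.000622 to 0.0885). Without air libraries 1 and 5 together the difference was -2.43 (adjusted p = 0.242). Slc38a2 had -1.17 ± 0.28 (adjusted p = 0.0821; without the pair -0.70, adjusted p = 0.549) and Ppp1r15a -1.15 ± 0.37 (adjusted p = 0.215; without the pair -0.50, adjusted p = 1).

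For the vehicle effect 0 of the 9 genes and 0% of all genes were called, with 5 of the 9 genes at an unadjusted p under 0.05 (12% of all genes). Atf3 had the largest value, -4.73 ± 0.98 (adjusted p = 0.167), which DESeq2 placed at 0.00272, and Slc38a2, Ppp1r15a and Atf5 had -0.95 ± 0.29, -1.14 ± 0.39 and 0.57 ± 0.20. Without 3-week air libraries 1 and 5 the values of Atf3, Slc38a2 and Ppp1r15a were -2.20 (adjusted p = 0.571), -0.49 and -0.49. The comparisons of nicotine and of vehicle with air share their air libraries, and so do not stand as separate evidence.

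Between the air groups, 3-month against 3-week start, 0 of the 9 genes passed (0.00645% of all genes, or 1 gene), and none was under an unadjusted p of 0.05, as 9.08% of all genes were. Atf3 had a log2 fold change of 0.13 ± 0.60, Trib3 -0.85 ± 0.43 and Ddit3 -0.38 ± 0.30. Without 3-week air libraries 1 and 5 the older air group was higher in Atf3 (2.66, adjusted p = 0.0058) and Ppp1r15a (0.99, adjusted p = 0.0392) and lower in Trib3 (-1.56, adjusted p = 0.009), with 5.32% of all genes called. Those libraries were set aside because they were high in Atf3 and Ppp1r15a and low in Trib3. Leaving them out moves these differences this way by itself, so these p-values are no test of age.

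Among exposed mice the levels at the 2 starting ages were far apart for several genes, which is given as a description without a test. Atf3 was at 4.15 to 15.8 CPM in 3-week vehicle and 152 to 285 CPM in 3-month vehicle, and at 3.86 to 7.73 CPM in 3-week nicotine and 143 to 219 CPM in 3-month nicotine. Slc38a2 was at 122 to 197 CPM with nicotine at the younger start and 324 to 370 CPM at the older, and Ppp1r15a at 22.8 to 39.9 and 74 to 95.2 CPM. Trib3 ran the other way, at 3.86 to 7.89 CPM in 3-week nicotine and 1.5 to 2.97 CPM in 3-month nicotine. In vehicle 5 of 9 genes did not overlap between starting ages (17.7% of all genes), and with nicotine 4 of 9 did not (19%). A sequencing batch is not named, so one that separates the ages cannot be told apart from age.

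The 9 genes did not vary as a single block. Across the 23 libraries, Spearman's rho was 0.95 between Atf3 and Ppp1r15a, with 0.85 within the 11 libraries of the 3-week start and 0.86 within the 12 of the 3-month start. It was 0.84 between Ddit3 and Trib3 (0.94 and 0.48 within the starting ages), and -0.76 between Trib3 and Slc38a2 (-0.81 and 0.01). Atf3 and Trib3 had -0.64 over all libraries but -0.22 and 0.14 within starting ages, so that relation lay between the ages. Over the 21 libraries other than 3-week air 1 and 5, rho was 0.95, 0.80, -0.78 and -0.68 for these pairs, in the order given, and within the 9 such libraries of the 3-week start it was 0.75, 0.88, -0.65 and 0.43. That of Atf3 and Trib3 at the younger start thus changed sign with those libraries. These correlations describe libraries that share groups, and depth and group differences enter them. The length trend also differed among libraries, from -0.347 to 0.263 at the 3-week start. Exonic length is 8.84 kb for Slc38a2, 2.12 kb for Trib3 and 1.71 kb for Ddit3, and the part of the trend in these correlations was not tested.

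**Figure D3:**
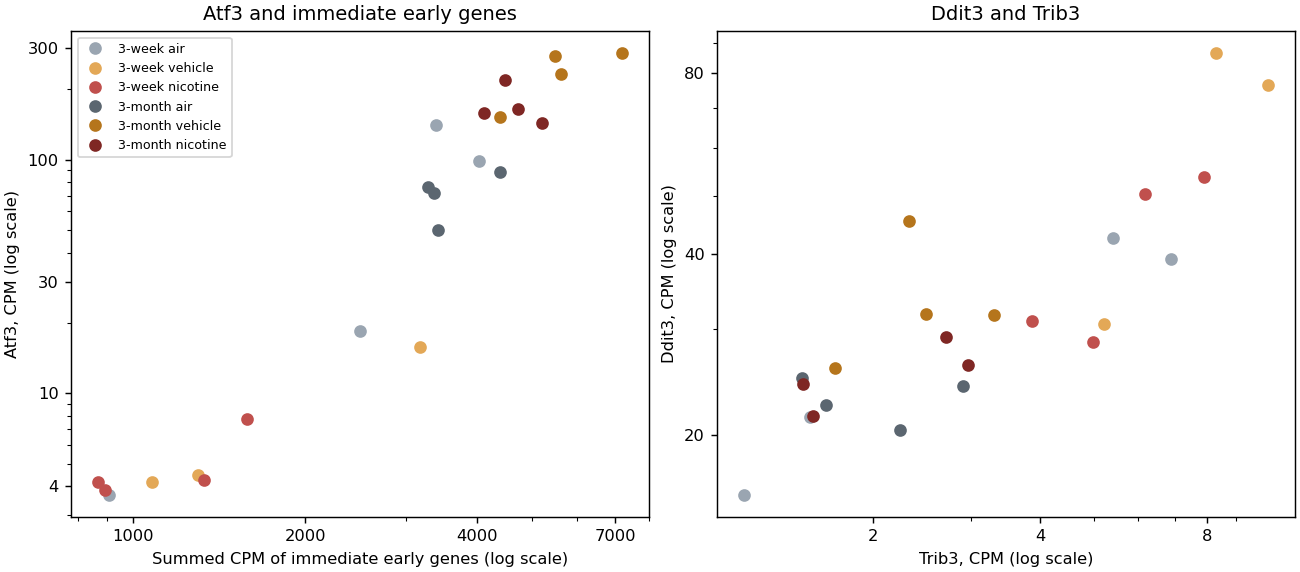
Left, Atf3 against the summed level of 24 immediate early genes in each of the 23 libraries; right, Ddit3 against Trib3; all axes are in CPM on log scales, and colours mark the 6 groups. The 2 high 3-week air libraries lie with the 3-month libraries in the left panel, and the 2 highest 3-week vehicle libraries lie at the upper right of the right panel.

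The genes whose level over the 23 libraries was most like that of Atf3, of 12092 genes compared, were Tnfrsf10b (a TRAIL death receptor gene, Spearman's rho 0.97), Ier5, Nr4a2, Btg2 and Otud1 (0.96 each). Of these Ier5, Nr4a2 and Btg2 are on the list of immediate early genes, the genes that respond within minutes to growth factors, stretch or handling of tissue. For Atf4 they were Nos3 (endothelial nitric oxide synthase, 0.89), Esam (an endothelial adhesion molecule, 0.89), Malt1 (0.89), Hspb1 (a small heat shock protein, 0.88) and Rhbdf2 (0.88). The summed level of the 24 immediate early genes had a Spearman's rho with Atf3 of 0.91 within the 3-week start and 0.85 within the 3-month start, with Ppp1r15a of 0.90 and 0.69, and with Trib3 of -0.09 and 0.35.

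The median log2 fold change of the immediate early genes had the sign of that of Atf3 in all 9 comparisons with every library in, and their part in the differences of Atf3 was not tested. Their sum was 3390 and 4040 CPM in 3-week air libraries 1 and 5, and 2500 and 905 CPM in libraries 2 and 4. At that age it was 1300, 3180 and 1080 CPM in vehicle libraries 1, 2 and 4, and 866 to 1580 CPM with nicotine. Vehicle library 2 had a sum near that of air library 1, but its Atf3 was at 15.8 CPM against 140 CPM. At the older start the sum was 3290 to 4400 CPM in air, 4390 to 7200 CPM in vehicle and 4110 to 5210 CPM with nicotine. In 3-month vehicle against air 12 of the 24 were higher and 0 lower, all 24 had a positive log2 fold change, and their median was 0.58 beside 0.01 over all tested genes. Ier5 (0.75 ± 0.12, adjusted p = 0.00142), Dusp1 (0.56 ± 0.10, adjusted p = 0.00191), Klf4 and Jund had the smallest p. In nicotine against air at that start 0 of 24 passed, with a median of 0.32 and all 24 positive. At the 3-week start 0 of 24 passed, 23 of 24 were negative in nicotine against air, and the median was -1.49. Without air libraries 1 and 5, 20 of 24 were negative there with a median of -0.49, and in vehicle against air the median was 0.13, opposite in sign to Atf3. The difference of the nicotine effect was called for 1 of the 24, the nuclear receptor gene Nr4a3 (-6.09 ± 1.13, adjusted p = 0.0302), and without those 2 libraries its value was -2.70 (adjusted p = 0.211).

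Other parts of the pathway held both higher and lower genes in 3-month vehicle against air, where 17.3% of all genes were called. Of 20 genes of the eIF2 kinases and eIF2 machinery, 1 was higher and 3 were lower. The higher one was Ppp1r15b, the constitutive partner of the eIF2 phosphatase (0.30 ± 0.08, adjusted p = 0.0147). Lower were Eif2s3x, a subunit of eIF2 (-0.62 ± 0.10, adjusted p = 0.00157), Eif2ak1, the HRI kinase (-0.30 ± 0.07, adjusted p = 0.00888), and Ppp1cb, a catalytic phosphatase subunit (-0.25 ± 0.08, adjusted p = 0.04). The genes of PERK, GCN2 and PKR (Eif2ak3, Eif2ak4 and Eif2ak2) did not pass.

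Of 30 further known targets of ATF4, 2 were higher and 4 lower in that comparison, with a median log2 fold change of -0.01. Eif4ebp1, an inhibitor of cap-dependent translation, was higher (0.36 ± 0.09, adjusted p = 0.00911), as was Cebpg, a dimer partner of ATF4 (0.22 ± 0.07, adjusted p = 0.048). Gpt2, a mitochondrial transaminase (-0.44 ± 0.09, adjusted p = 0.00509), Mthfd2, an enzyme of mitochondrial folate metabolism (-0.95 ± 0.22, adjusted p = 0.00835), Vldlr and Got1 were lower. Of 19 tested aminoacyl-tRNA synthetase genes, which ATF4 also drives, 0 were higher and 3 were lower: Iars (-0.37 ± 0.07), Aars (-0.28 ± 0.07) and Nars (-0.20 ± 0.07).

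Among 16 tested genes of related bZIP factors, Nfil3 (1.15 ± 0.31, adjusted p = 0.0321) and Crem (0.36 ± 0.11, adjusted p = 0.0397) were higher, and Nfe2l1, Atf6 and Atf2 were lower. Of 19 genes of the endoplasmic reticulum unfolded protein response, 0 were higher and 4 lower, namely Ern1, the IRE1 sensor (-0.58 ± 0.12, adjusted p = 0.00481), Hyou1, Canx and Sel1l. Of 13 genes of mitochondrial stress 0 were higher and 3 lower (Twnk, Hspa9 and Clpx).

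In nicotine against vehicle at the same start, a comparison that shares the vehicle libraries, 15.1% of all genes were called. Canx, Ern1, Hyou1, Sel1l and Dnajb9 were higher, 5 of the 19 unfolded protein response genes with 0 lower. Eif2s3x (0.73 ± 0.11, adjusted p = 0.000853), Eif2ak1 and Ppp1cb were higher and Eif2s2 was lower among the 20 eIF2 genes. Of 30 ATF4 targets 3 were higher and 0 lower: Vldlr (0.48 ± 0.11, adjusted p = 0.0073), Slc7a1, a cationic amino acid transporter (0.66 ± 0.16, adjusted p = 0.0169), and Gdf15, a stress-induced secreted factor (0.96 ± 0.26, adjusted p = 0.0323). Of 19 synthetases 2 were higher (Iars and Tars), of 16 bZIP genes 3 (Atf6, Nfe2l1 and Atf1), and of 13 mitochondrial stress genes 4 were higher and 1 lower. Of the immediate early genes, Klf4 (-0.46 ± 0.10, adjusted p = 0.00537) and Dusp1 (-0.39 ± 0.10, adjusted p = 0.0115) were lower. The length trend of the libraries set out above divides the vehicle group from both others, and its part in these lists was not tested.

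**Figure D4:**
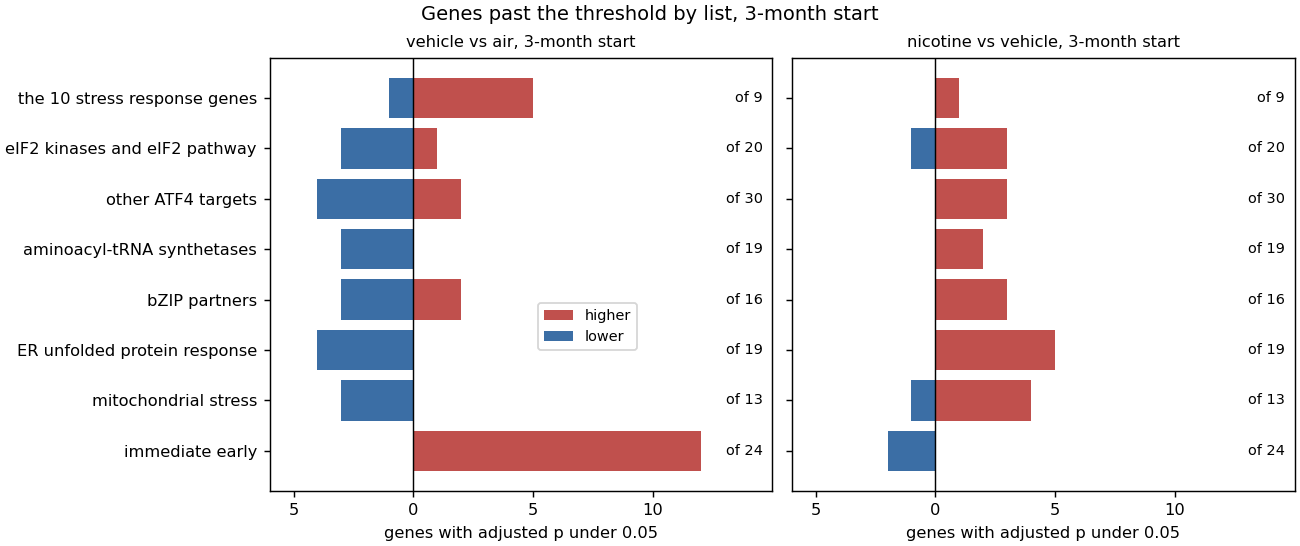
Number of genes with an adjusted p under 0.05 in each list at the 3-month start, for vehicle against air (left) and nicotine against vehicle (right); bars to the right of 0 are higher genes, bars to the left lower genes, and the number tested stands at the right. In vehicle against air 5 of the 9 tested stress response genes and 12 of 24 immediate early genes were higher, while 0 of 19 unfolded protein response genes were.

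In nicotine against air at the 3-month start none of the eIF2, ATF4 target, synthetase, bZIP, unfolded protein response or mitochondrial stress genes passed, and in all 3 comparisons at the 3-week start 0 genes of any of these lists passed. Of the 19 unfolded protein response genes 18 had a positive log2 fold change in nicotine against air at the older start (median 0.16) and 17 a negative one at the younger start (median -0.13), with 0 past the threshold in either. Without 3-week air libraries 1 and 5 the second count was 14, with a median of -0.11. In the fit of all 23 libraries 0 genes of any list passed in a 3-month comparison, since 0% of all genes did.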

How the data were processed

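RNA from the left ventricle was sequenced in 23 libraries. The values deposited by the authors are raw read counts for each gene. The submitters' processing notes name STAR 2.5.2b, Subread 1.5.2 with featureCounts, Trimmomatic 0.36 and DESeq2. No source used here states the build, annotation or strand setting. For nicotine against air the authors also deposited log2 fold changes and p-values. Their deposited signal values per library served only to check column names. Symbols, exonic lengths and overlaps came from GENCODE vM21 by gene ID.

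Counts were analysed with edgeR 4.0.16 in R 4.3.3 (filterByExpr, minimum count 10; TMM over 23 libraries; robust quasi-likelihood fit). Exposure comparisons were fitted within a starting age, and the others over all 23 libraries. Benjamini-Hochberg adjustment ran over all 15500 genes, with a threshold of 0.05. Alternatives used DESeq2 1.42.0, limma 3.58.1 and others given below, and scripts were tested on simulated data. The 10 genes and all lists were chosen with earlier results of these data known. All 10 genes were followed in each comparison, with up to 4 genes past the threshold with the smallest p from each list, and the 5 genes most like Atf3 and Atf4 by Spearman's rho, leaving out predicted gene models and genes with a mean log2 CPM under 1. A gene named beyond this rule was chosen after its values were seen. Replicate numbers were not used to pair libraries in the main fits, and no 2 libraries of the same group agreed within sampling noise.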

Additional observations from a re-analysis of the deposited data

Results flagged for a closer look

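The log2 fold change of Atf3 for nicotine aerosol against air differed between starting ages by -4.96 in a direct test (adjusted p = 0.0302, edgeR's quasi-likelihood test over all 23 libraries). The call stayed in 3 of the 16 fits that left out 1 library. Without 3-week air libraries 1 and 5 the difference was -2.43 (adjusted p = 0.242). For vehicle aerosol against air the same test gave -4.73 (adjusted p = 0.167), which did not pass. Among 45 groups of 4 libraries examined for a single library far from the rest, 2 held one, where chance gives about 1 in 20. Atf3 in 3-week nicotine library 5 was at 7.73 CPM, against 4.24 CPM in the next library, a gap of 0.902 of the group's range. Asns in 3-month air library 2 was at 1.32 CPM, against 2.55 CPM in the next library, a gap of 0.842 of the range.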

How the results depend on the processing

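Replicate numbers are shared by some groups, and the main fits did not pair libraries by them. The correlation of deviations was over 0.1 in 3 of 6 pairs at the 3-week start (-0.36 to 0.26) and in 0 of 10 at the 3-month start (-0.3 to 0.05). Whether the numbers pair libraries at the 3-week start is not settled by these values. With the replicate block the number of the 9 genes called was 2 in 3-month vehicle against air, 0 in 3-month nicotine against air and 0 in the difference of the nicotine effect. With the block and the length offset together it was 3 in 3-month vehicle against air, 0 in 3-month nicotine against air and 0 in 3-month nicotine against vehicle, and no block with length offset was fitted for the differences between ages. The share of all genes called with the block is not given here, so these counts cannot be set against a background.

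All 23 libraries in the fit gave 1 gene called in 3-week nicotine against air (0.761% of all genes). That fit gave 3 in 3-week vehicle against air (16.2%) and 0 in each of the 3-month comparisons (0%). DESeq2 called 1 gene in 3-week nicotine against air (0.633% of all genes), 2 in 3-month nicotine against air (0.252%), 2 in 3-month nicotine against vehicle (17.1%, so near the background), 2 in the difference of the nicotine effect (1.31%) and 1 in that of the vehicle effect (0.426%). The length offset gave 0 in 3-month nicotine against vehicle (10.6%) and 2 in the difference of the nicotine effect (0.329%). Voom with quality weights gave 0 for the nicotine difference, 1 for the vehicle difference (3.86% of all genes) and 2 for the air groups (8.19%), and no filter on low counts gave 0 for the nicotine difference. Without 3-week air libraries 1 and 5, 0 genes were called in the nicotine difference (0.00645% of all genes) and 3 between the air groups (5.32%). These libraries were left out because they stood apart in several of these genes, so the last count is no test of age.

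Leaving out 1 library at a time gave 0 to 0 genes in 3-week nicotine against air, with 0 of all 15500 called. In 3-week vehicle against air it gave 0 to 1 (1 without vehicle library 4, where 3874 of 15500 genes were called). In 3-month nicotine against air it gave 0 to 1 (0 to 17 of all genes). For 3-month vehicle against air this was 2 to 5 (1495 to 2968), and for 3-month nicotine against vehicle 0 to 3 (1274 to 2736). In the difference of the nicotine effect it gave 0 to 3 (0 to 206), and in that of the vehicle effect 0 to 3 (0 to 1346). Of 392 recomputed fold changes of 23 named results, 0 turned direction, 67 lost and 19 gained the call, and the cause was not tested. These results do not cover every gene in every comparison, and some uncalled differences outside them did turn without 3-week air libraries 1 and 5. Trib3 in 3-week nicotine against air went from 0.62 to -0.09. In the difference of the nicotine effect, Ddit3 went from 0.32 to -0.14 and Trib3 from 0.54 to -0.16. RLE scaling moved levels by at most 2.63%. Low counts limit Asns, Sesn2, Trib3 and Fgf21.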
